A study of Mus musculus with 5 samples.

Results

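The HoxC genes are the homeobox genes of the mouse HoxC cluster: Hoxc4, Hoxc5, Hoxc6, Hoxc8, Hoxc9, Hoxc10, Hoxc11, Hoxc12 and Hoxc13. They were chosen by name, as the members of this cluster, and their probes were found through the RefSeq accession attached to each probe. All 9 were matched, among 19897 genes named in the same way. Each had 1 probe with 1 spot per array, and none of these spots was saturated.

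Gene expression was profiled while mouse embryonic stem (ES) cells were differentiated into spinal motor neurons (MNs) in culture, on 1 one-colour Agilent array for each of 5 time points. There are no replicates, so no test between time points was possible, and precision is limited by this number of arrays. All samples were wild type and labelled male. ES was the stem cell culture, and Day2 was the culture after 8 h of retinoic acid (RA). Day3 and Day4 were embryoid bodies (EBs) after 1 and 2 days of RA, and Day7 was labelled as MNs after 5 days of RA. The treatment notes instead place RA together with Shh between day 2 and day 5. The labels give Shh as the second inducer, and in the paper it is SAG, an agonist of the same pathway. No sorting step is named in the labels, so each array is taken to hold the RNA of a whole culture.

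Hox genes encode homeodomain transcription factors that tell cells where they lie along the head-to-tail axis. Within a cluster the genes stand in the order in which they are used: genes at the 3′ end are switched on early and act anteriorly, and genes at the 5′ end are switched on late and act posteriorly. In the spinal cord the 3′ HoxC genes are known from cervical levels, the central ones from brachial and thoracic levels, and the 5′ ones from lumbar and sacral levels, where they help to set the identity of motor columns and pools, and RA is a classical inducer of the 3′ genes.

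Levels are given as log2 signals after quantile normalization over the 5 arrays. For HoxC spots well above background, the scanner's own error was between 0.14 and 0.31 on the log2 scale, and it reached 1.45 for spots that were not. This error belongs to a single spot on a single array and does not cover variation between cultures. A probe that was not well above background on an array has only a bound there. Its change was computed against the detection limit of that array, which is the dimmest probe still well above background there, or against its own value if that was higher, and "at least" marks such a bound. Where both arrays were dim, or the bright one did not exceed the limit, there is no fold.

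The Day2 array stood apart from the others. On it 86.7% of all probes were well above background, against 59.2% in ES, 57.5% on Day3, 65.7% on Day4 and 62.4% on Day7. Of 1067 olfactory receptor genes, which have no known role in these cultures, 71.2% were well above background on Day2 and 9.37% to 14.7% on the other arrays. The ERCC probes, designed against sequences that are not from mouse, numbered 96, of which 66.7% were well above background on Day2 and 4.17% to 9.38% elsewhere. Dim values on Day2 therefore carry less weight than those of the other arrays. Day7 was alone on a second slide, also scanned at another time, so for Day7 the effects of slide, scan and time cannot be told apart.

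The ES and MN labels were checked against marker genes. Of 6 ES cell markers, 4 were lowered at least 2-fold from ES to Day7, with Klf4 lower by 3.63 and Pou5f1, a core pluripotency factor, lower by 4.17 on the log2 scale and a list median of −3.23. The 6 markers of MNs, among them the acetylcholine-synthesizing enzyme Chat and the vesicular transporter Slc18a3, were all raised from ES to Day7, by a median of 5.98. The summed normalized signal of the ES markers was 44822 in ES, 14894 and 11795 on Day2 and Day3, and 10383 and 7395.5 on Day4 and Day7, with Esrrb brightest in ES, and that of the MN markers was 1282, 1291, 1012, 2194 and 75890.3, with Slc18a3 brightest on Day7. Of the MN markers, Chat was not well above background in ES and Slc5a7 not on Day3 and Day4. The labels were thus borne out by their markers, but Nanog stood at 9.20 in ES and 8.80 on Day7, and Sox2, which neural progenitors also use, at 12.70 and 11.93.

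Detection came first. In ES, 3 of 9 HoxC genes were well above background (Hoxc6, Hoxc12 and Hoxc13), against 73.1% of all named genes. On Day2 all 9 were, but so were 91.7% of all genes. The number was 5 on Day3 (72.7% of all genes) and 6 on Day4 (77.6%), and it fell back to 3 on Day7 (76.2%), where Hoxc4, Hoxc5 and Hoxc6 were left. These numbers rest on the flag, as the more lenient one detected 7 in ES and 6 on Day7. No share of all genes is given here for that flag, so these counts are not set against one.

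From ES to Day2, 3 of the 9 HoxC genes were raised at least 2-fold (Hoxc4, Hoxc5 and Hoxc10), against 10.7% of all genes with a value, and 1 was lowered (Hoxc13), against 11.3%. The number raised was 5 after the 75th percentile of each array was set equal (3832 of 18317 genes with a value) and without normalization (4546 of 18317), where Hoxc9 and Hoxc12 joined while the number of all genes raised grew as well. From ES to Day3, 3 of 6 HoxC genes with a value were raised (Hoxc4, Hoxc5 and Hoxc9; 15.6% of all genes) and Hoxc13 was lowered (10.2%). From ES to Day4, 5 of 7 were raised, namely Hoxc4, Hoxc5, Hoxc6, Hoxc8 and Hoxc9, against 17% of all genes, and with normexp background correction 4 were, without Hoxc8 (1789 of 15838 genes). In the main setting Day4 thus had the most raised HoxC genes, from the 3′ end as far as Hoxc9, but Day2 had as many, 5, with the shift and without normalization. The deposited values also gave 5, but they are nearly the shift again and add no separate setting. From ES to Day7, 3 of 5 were raised (Hoxc4, Hoxc5 and Hoxc6; 24.8% of all genes) and Hoxc13 was lowered (24.4%), with Hoxc6 left out of the raised genes by normexp and Hoxc12 added to the lowered ones by the shift. With the more lenient detection flag 4 were raised (4385 of 17994 genes), as with no filter on dim probes (4385 of 19897), since Hoxc9 was then 1.23 above ES on Day7. In both of these settings Hoxc12 joined Hoxc13 among the lowered genes, where 4571 of all genes were lowered.

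The step from Day3 to Day4 raised 4 of 6 HoxC genes with a value (Hoxc5, Hoxc6, Hoxc8 and Hoxc9), whereas 3.62% of all genes were raised in that step. The count was 5 with the shift, where Hoxc13 joined (684 of 15627 genes), and 3 with normexp, where Hoxc8 was left out (350 of 15627). It was 5 with the more lenient flag (1217 of 18052 genes) and with no filter on dim probes (1220 of 19897), where Hoxc10 joined. At 4-fold it was 0 (146 of 15627). The step from Day4 to Day7 lowered 4 of 6 (Hoxc6, Hoxc8, Hoxc9 and Hoxc13; 18.1% of all genes), and this count was 2 without normalization, where 536 of 16083 genes were lowered, and 1 with normexp, where 2122 of 16083 were. The median log2 change of the HoxC genes with a value was 0.54 from ES to Day2, 2.16 to Day3, 2.29 to Day4 and 1.11 to Day7, with dim genes at their bounds, beside medians of 0.00, 0.06, 0.05 and −0.07 over all genes. From Day4 to Day7 it was −1.43 beside −0.12.

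These counts rest on how the arrays were brought to one scale. Without normalization the median of all genes moved by 0.27 from ES to Day2, −0.63 to Day3, −1.06 to Day4 and 0.01 to Day7, and by 1.06 from Day4 to Day7. With the shift to the 75th percentile it moved by −0.12 to Day3, −0.11 to Day4, −0.35 to Day7 and −0.25 from Day4 to Day7. Of all genes past 2-fold from ES to Day2, 48.7% were raised in the main setting, 74.9% with the shift, 74.8% with the deposited values and 85.4% without normalization. The share was 60.3% to Day3, against 48.0% with the shift, 47.9% with the deposited values and 17.9% without normalization, and it was 54.1% to Day4, against 9.53% without normalization. From Day3 to Day4 it was 42.6%, against 52.95% with normexp and 20.1% without normalization, and from Day4 to Day7 49.9%, against 94.0% without normalization.

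**Figure D1:**
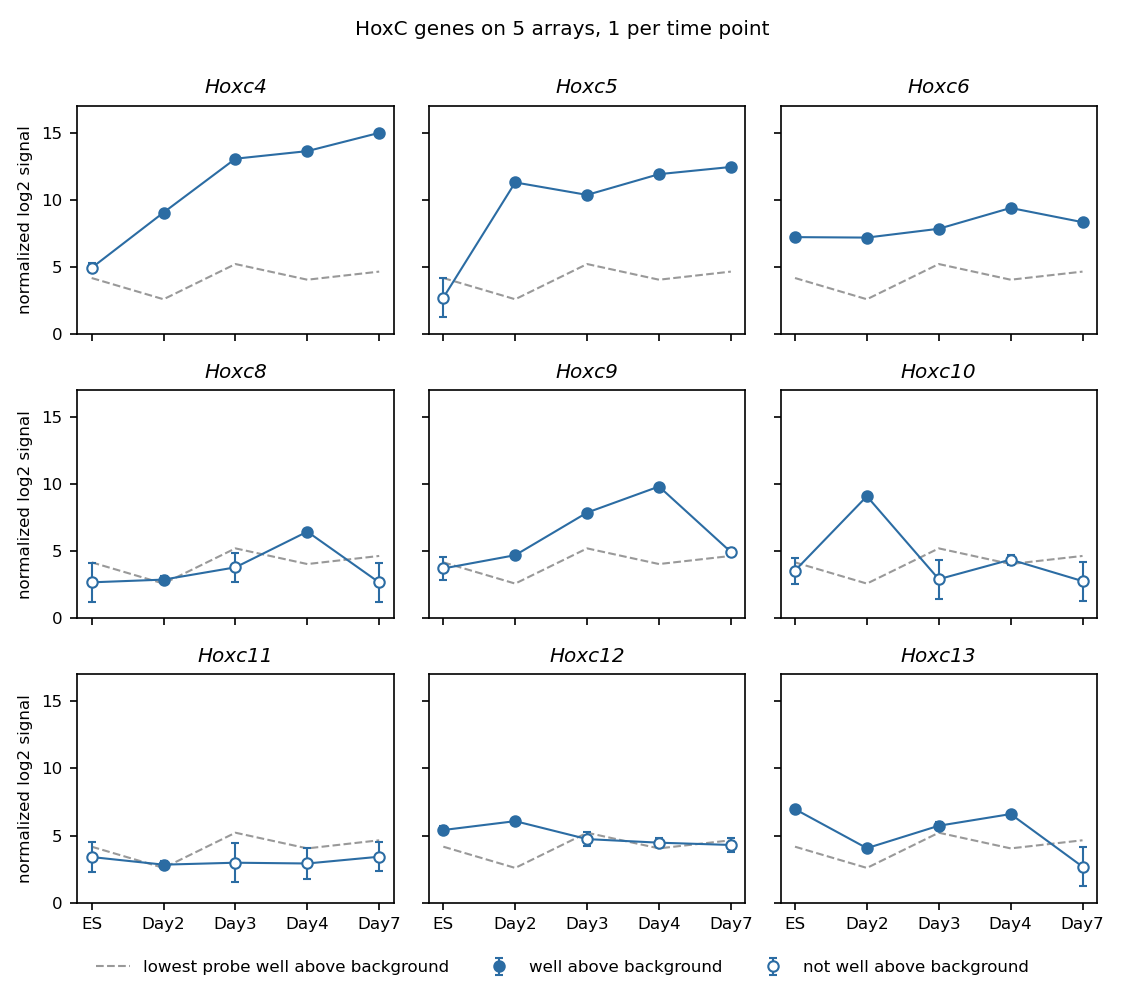
Normalized log2 signal (y axis) of each HoxC gene on the 5 arrays (x axis), 1 array per time point. Points are single probes, filled where well above background and hollow where not, bars are the scanner's error of the spot, and the dashed line is the detection limit of each array. Hoxc4 reaches 14.99 on Day7, Hoxc9 peaks at 9.83 on Day4, and Hoxc10 stands at 9.10 on Day2 alone.

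Hoxc4 and Hoxc5 form the 3′ end of the cluster and are used at cervical levels. The signal of Hoxc4 was 4.94 in ES, not well above background, then 9.06 on Day2, 13.06 on Day3, and 13.63 and 14.99 on Day4 and Day7. It was dim in ES alone, and each later array was above the one before. Hoxc4 was at least 17.4-fold higher than in ES on Day2, at least 279-fold on Day3, at least 413-fold on Day4 and at least 1059.6-fold on Day7. The Day2 bound, 4.12 on the log2 scale, ranged from 2.45 to 4.58 over the alternatives that gave one. On that scale the bounds for Day3, Day4 and Day7 were 8.13, 8.69 and 10.05. They shrank to 6.45, 7.02 and 8.38 with the limit at the ERCC probes. Between arrays where the gene was measured on both, the rise from Day2 to Day3 was 16.1-fold and that from Day4 to Day7 2.57-fold. Day3 and Day4 differed by 0.56 on the log2 scale, less than 2-fold, and by 0.03 without normalization, so no order of these 2 arrays is drawn for Hoxc4.

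The signal of Hoxc5 was 2.72 in ES, not well above background, then 11.30 on Day2, 10.37 on Day3, and 11.91 and 12.45 on Day4 and Day7. After 8 h of RA the signal was at least 139-fold above ES, a log2 bound of 7.12 that shrank to 4.81 with normexp and to 4.69 with the detection limit set at the 95th percentile of the ERCC probes. Day3 was lower than Day2 by 0.93 on the log2 scale, under 2-fold, and by 1.56 without normalization. Hoxc5 rose 2.92-fold from Day3 to Day4, and the further 0.54 to Day7 stayed under 2-fold except without normalization, where it was 1.75. Hoxc4 was highest on Day7, no order of Day4 and Day7 is drawn for Hoxc5, and neither gene was lost from any array after Day2. Fewer cells expressing a gene and less RNA of it per cell cannot be told apart in these cultures, here or for the genes that follow.

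Hoxc6, Hoxc8 and Hoxc9 form the centre of the cluster. Hoxc6 is used in the lateral motor column at brachial levels, Hoxc8 in caudal brachial motor pools, and Hoxc9 at thoracic levels, where it holds back the brachial genes. These 3 genes shared a peak on Day4 and a fall on Day7 in the main setting.

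The signal of Hoxc6 was 7.22 in ES, 7.19 on Day2, 7.85 on Day3, and 9.39 and 8.34 on Day4 and Day7, well above background on all 5 arrays. It had no early response: the change from ES to Day2 was −0.03, and 0.54 with the shift to the 75th percentile or 0.77 without normalization, none of them past 2-fold. From Day2 to Day3 it was 0.66, under 2-fold, and −0.69 without normalization, where the median gene changed by −0.81. Hoxc6 rose 4.51-fold from ES to Day4, or 2.17 on the log2 scale, and 1.29 without normalization. It was 2.16-fold above ES on Day7, and under 2-fold with normexp, at 0.92 on the log2 scale. From Day4 to Day7 it was 2.08-fold lower, under 2-fold with normexp (−0.88), and the sign turned without normalization, where Hoxc6 gained 0.24 while the median gene gained 1.06, a change of −0.82 relative to that median.

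The signal of Hoxc8 was 2.69 in ES, 2.89 on Day2, 3.81 on Day3, and 6.46 and 2.68 on Day4 and Day7, and only Day2 and Day4 were well above background. The Day2 value lay below the detection limit of the ES array, so it gives no fold. Day4 was the single array with a clear signal, at least 4.88-fold above ES and at least 2.37-fold above Day3. By Day7 Hoxc8 was at least 3.51-fold lower than on Day4. This gene was faint throughout: its processed signal on Day4 was 47.7 units, and with normexp the bounds shrank to 0.87 for the rise from ES to Day4 and −0.89 for the fall from Day4 to Day7, both under 2-fold. The normexp setting adds an offset of 50 units, about the size of this signal, so it shrinks the folds of faint genes by construction. It therefore cannot decide whether these changes of Hoxc8 pass 2-fold. The fall from Day4 to Day7 was also under 2-fold without normalization, with a bound of −0.86, but there the median gene gained 1.06.

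The signal of Hoxc9 was 3.72 in ES, 4.71 on Day2, 7.88 on Day3, and 9.83 and 4.95 on Day4 and Day7, and it was not well above background in ES and on Day7. It was the clearest transient member: at least 13.04-fold above ES on Day3, at least 50.1-fold on Day4, and at least 29.3-fold lower on Day7 than on Day4. On Day2 it was at least 1.45-fold above ES, and that bound passed 2-fold with the shift to the 75th percentile (1.98 on the log2 scale) and without normalization (2.21). Steps measured on both arrays were a 9.00-fold rise from Day2 to Day3 and a 3.84-fold rise from Day3 to Day4. The first of these, 3.17 on the log2 scale, shrank to 1.73 with the shift, 1.60 with normexp, 0.9987 without normalization and 0.49 with the limit at the ERCC probes, so the Day2 level of Hoxc9 is poorly fixed. The rises from ES to Day3 and Day4 and the fall to Day7 stayed past 2-fold with normexp, at 1.73, 3.29 and −3.12. With the limit at the ERCC probes the bounds of these rises shrank to 1.27 and 3.22.

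Hoxc10, Hoxc11, Hoxc12 and Hoxc13 form the 5′ end. Hoxc10 is used in the lumbar lateral motor column, Hoxc11 at lumbosacral levels, Hoxc12 lies next to Hoxc13 with few known roles in the neural tube, and Hoxc13 is best known for hair and nail formation. None of these 4 genes was well above background on Day7.

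The signal of Hoxc10 was 3.57 in ES, 9.10 on Day2, 2.92 on Day3, and 4.38 and 2.78 on Day4 and Day7, and Day2 was the single array where it was well above background. It was at least 30.3-fold higher on Day2 than in ES and at least 14.7-fold lower on Day3 than on Day2. The processed signals before normalization were 11.9, 764, 5.10, 10.7 and 6.61 in the same order. A lumbar gene was thus well above background on a single array, the one that stood apart in its dim probes, and with the more lenient flag it was detected on 3 arrays. On Day2 alone 2188 named genes were well above background, among them 548 olfactory receptor genes and, of the HoxC genes, Hoxc10 and Hoxc11. Of the 2188, 330 rose at least 2-fold from ES and fell at least 2-fold to Day3, and 19, with Hoxc10 itself and 4 olfactory receptor genes among them, had both changes at least as large as those of Hoxc10. The rise of Hoxc10 shrank to at least 2.49 on the log2 scale with the limit at the ERCC probes, and its fall to −2.56 with normexp. The part of the Day2 array in this signal was not tested.

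Hoxc11 had no fold in any comparison of the main setting. Its signal was 3.41 in ES, 2.84 on Day2, 2.99 on Day3, and 2.93 and 3.43 on Day4 and Day7, and it was well above background on Day2, where dim probes were raised in general. With the detection limit at the ERCC probes it was well above background on none of the 5 arrays.

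The signal of Hoxc12 was 5.42 in ES, 6.08 on Day2, 4.74 on Day3, and 4.48 and 4.31 on Day4 and Day7, well above background in ES and on Day2. Its rise to Day2, 0.66 on the log2 scale, was under 2-fold, but was 1.65 with the shift to the 75th percentile and 1.88 without normalization. Against ES it was at least 1.92-fold lower on Day4 and at least 1.70-fold lower on Day7. These bounds were under 2-fold. The fall to Day4 passed it without normalization (−1.94), where the median gene changed by −1.06. The fall to Day7 passed it with the shift (−1.09), where the median gene changed by −0.35.

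The signal of Hoxc13 was 6.97 in ES, 4.07 on Day2, 5.74 on Day3, and 6.61 and 2.69 on Day4 and Day7, not well above background on Day7 only. It was high in ES and on Day4, which differed by −0.36, under 2-fold, or by −1.30 without normalization, where the median gene changed by −1.06, so no order of these arrays is drawn. Hoxc13 was 7.49-fold lower on Day2 than in ES, and the fall was smaller, but past 2-fold, with the shift to the 75th percentile (−1.25), without normalization (−1.02) and with normexp (−1.06). The rebound from Day2 to Day3, 3.18-fold in the main setting, turned to −0.24 with the shift and −0.98 without normalization. The fall to Day2 thus held under each of these scalings and the return on Day3 did not. With the limit at the ERCC probes, however, Hoxc13 was not lowered from ES to Day2, so its fall to that array also rests on the setting. On Day3 Hoxc13 was 2.35-fold lower than in ES, or under 2-fold with normexp (−0.64). By Day7 Hoxc13 was at least 4.99-fold lower than in ES and at least 3.87-fold lower than on Day4. With normexp these bounds shrank to −1.10 and −0.78 on the log2 scale, the latter under 2-fold.

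**Figure D2:**
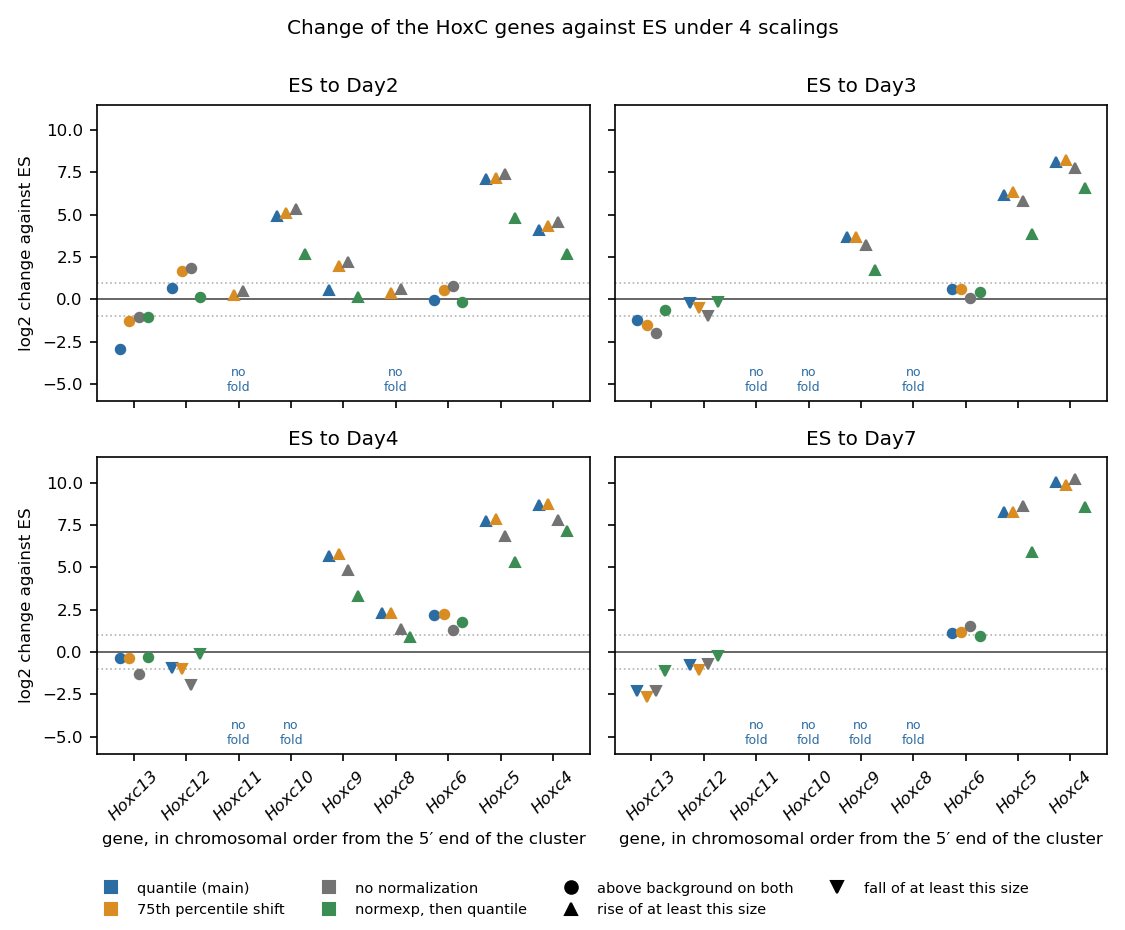
Log2 change of each HoxC gene against ES (y axis) on each later array, with the genes in chromosomal order from Hoxc13 at the 5′ end to Hoxc4 at the 3′ end (x axis) and 4 scalings in colour. Circles are genes well above background on both arrays, upward triangles are lower bounds of a rise, downward triangles are falls of at least the size drawn, dotted lines are 2-fold, and "no fold" refers to the main setting. The raised genes reach from Hoxc4 to Hoxc9 on Day4, with Hoxc8 under 2-fold in the normexp scaling, and from Hoxc4 to Hoxc6 on Day7, where Hoxc6 passes 2-fold in 3 of the 4 scalings; the sign of Hoxc6 on Day2 turns between scalings.

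Read along the cluster, onset was taken as the first array on which a gene was well above background and at least 2-fold above ES. It was Day2 for Hoxc4, Hoxc5 and Hoxc10, Day3 for Hoxc9, and Day4 for Hoxc6 and Hoxc8, and Hoxc11, Hoxc12 and Hoxc13 had none. Onset therefore did not follow gene order strictly in the main setting, since Hoxc9 met the rule 1 array before its 3′ neighbours Hoxc8 and Hoxc6. It moved with the setting: Hoxc9 met the rule on Day2 with the shift to the 75th percentile and without normalization, Hoxc6 on Day3 with a 1.5-fold threshold, Hoxc8 on Day3 with a more lenient detection flag and on no array with normexp or the limit at the ERCC probes, and Hoxc12 on Day2 with the shift, without normalization or with a 1.5-fold threshold. Where a gene had to meet the rule on the next array as well, Hoxc4, Hoxc5, Hoxc6 and Hoxc9 kept their onset and Hoxc8 and Hoxc10 lost it in the main setting, while Hoxc6 lost it too with normexp and at 4-fold and Hoxc8 had one on Day3 with the more lenient flag.

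The peak was taken as the highest array among those well above background. It was Day7 for Hoxc4, Day7 for Hoxc5 without a 2-fold distance from Day4, Day4 for Hoxc6, Hoxc8 and Hoxc9, and Day2 for Hoxc10, and without normalization that of Hoxc6 was Day7. No peak is read for Hoxc11 or Hoxc12, since neither gene was detected on any array with the limit at the ERCC probes. Hoxc11 passed the flag on Day2 alone, where its signal was the lowest of the series after quantile normalization but the highest with the shift and without normalization. For Hoxc13 the rule gave ES, which was not told apart from Day4 above. A fall of at least 2-fold from the peak was first met on Day7 by Hoxc6, Hoxc8 and Hoxc9, on Day3 by Hoxc10 and on Day2 by Hoxc13, or on Day3 by Hoxc13 with the limit at the ERCC probes. For Hoxc12, whose peak is not read, the rule gave Day4 in the main setting. It gave Day3 with the shift, without normalization and with the more lenient flag. It gave no array with normexp, at 4-fold or with the limit at the ERCC probes, so no fall is read either. The falls of Hoxc6 and Hoxc8 did not reach the threshold without normalization, with normexp or at 4-fold, while that of Hoxc9 did in each. Without normalization the median gene gained 1.06 from Day4 to Day7. The 3′ genes Hoxc4 and Hoxc5 were thus kept in the MN culture and Hoxc9 was not well above background there, though detected by the more lenient flag, and for Hoxc6 and Hoxc8 between them the loss rests on the setting.

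The HoxC paralogs in the HoxA, HoxB and HoxD clusters were read as a list of 22 genes, all matched, with Hoxa7 and Hoxb7 included although the HoxC cluster has no gene of their group. From ES to Day2, 12 of 21 with a value were raised and 1 lowered, and from ES to Day7, 9 of 14 were raised and 2 lowered, with median log2 changes of 1.29 and 4.68 beside 0.00 and −0.07 for all genes. Of all genes, 10.7% and 24.8% were raised and 11.3% and 24.4% lowered. The count to Day2 was 16 raised and 0 lowered with the shift to the 75th percentile (3832 of 18317 genes raised). With normexp it was 9 raised and 0 lowered, with a median of 0.49 (958 of 18317 genes raised). From ES to Day3, 12 of 16 were raised and 0 lowered, and from ES to Day4, 13 of 17 were raised and 1 lowered. Of all genes, 15.6% and 17% were raised. From Day4 to Day7, 3 of 17 were raised and 8 lowered, beside 2911 raised and 2918 lowered of 16083 genes. Without normalization 7 were raised and 5 lowered, beside 8384 raised and 536 lowered of 16083 genes.

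Gene by gene, the paralogs of the central HoxC genes were divided. Those of Hoxc6 were under 2-fold in the other direction from Day4 to Day7, where Hoxb6 gained 0.56 and Hoxa6 0.67. Hoxb9 stood at 9.33 on Day4 and was not well above background on Day7, a fall of at least 4.67 on the log2 scale, and Hoxd9 fell by at least 1.59. Hoxa9 instead gained 1.23 from Day4 to Day7. Hoxb8 was lower by 1.09 on Day7 than on Day4 in the main setting, but 0.23 higher without normalization, and Hoxd8 was lower by 2.23. At the 3′ end, Hoxb5 gained 1.38 and Hoxa5 1.10 from Day4 to Day7, while Hoxd4 lost 2.75. Hoxa4 and Hoxb4 changed by −0.61 and −0.03, both under 2-fold, so none of the matched paralogs of Hoxc4 rose as it did. At the 5′ end, Hoxb13 and Hoxd13 were, like Hoxc13, well above background in ES and not on Day7, falls of at least 2.79 and at least 2.84 from ES. Hoxa10, Hoxd10, Hoxa11, Hoxd11 and Hoxa13 were well above background on Day2 only, like Hoxc10 and Hoxc11. From ES, Hoxa13 rose by at least 2.44, Hoxd11 by at least 1.11 and Hoxd10 by at least 0.91, under 2-fold, and Hoxa10 and Hoxa11 had no fold.

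The genes that pass RA and caudal signals to Hox clusters were mixed. Of 10, 8 had a value from ES to Day2, of which 4 were raised and 0 lowered, and from ES to Day7 3 were raised and 2 lowered, with a median of 0.47. Rarb, an RA receptor and RA target, stood at 6.82 in ES and 12.09, 12.51, 12.77 and 12.42 on the later arrays. Cyp26a1, which breaks RA down, stood at 6.50, 13.66, 15.40, 15.22 and 8.09, and Cdx1, a caudal factor that activates Hox genes, at 9.07, 13.82, 13.06, 11.45 and 8.26. Both were high from Day2 to Day4 and lower on Day7, where Cyp26a1 was still 1.58 above ES and Cdx1 0.81 below it. Hoxc9 was not raised by Day2 in the main setting. Cdx4 and Wnt3a, which act in the tail bud, were not well above background on any array, and Cdx2 stood at 6.79 in ES and was not well above background on Day7. Gdf11, a signal that favours 5′ Hox genes, rose by 1.98 from ES to Day4. Fgf8 was raised by 2.22 on Day2 alone.

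The Hox cofactors, TALE homeodomain proteins that bind DNA together with Hox proteins, were well above background on all 5 arrays in all 9 cases. From ES to Day2, 3 were raised (Pbx2, Meis2 and Pknox2), and from ES to Day7, 6 were raised with a median of 2.86, with 0 lowered in either. Meis1 stood at 10.02 in ES, 10.70 on Day2, 13.14 on Day3, and 13.77 and 15.16 on Day4 and Day7, and Meis2 at 8.09, 12.79, 13.16, 13.44 and 14.08. Both genes were higher on every later array than in ES, as Hoxc4 and Hoxc5 were.

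The list of motor column and pool genes holds genes downstream of HoxC proteins and the general MN genes Isl1, Isl2 and Lhx3. From ES to Day3, 3 of 11 were raised and 5 lowered (2365 and 1557 of 15204 genes). From ES to Day4, 5 were raised and 3 lowered (2693 and 2285 of 15838 genes), with Pou3f1 lower by 4.99 and Etv4 by 3.43. Without normalization 1 was raised and 5 lowered to Day4, beside 879 and 8341 of 15838 genes. With normexp 1 was raised and 3 lowered, beside 1789 and 1545 of 15838 genes. From Day4 to Day7, 9 were raised and 1 lowered (2911 and 2918 of 16083 genes). From ES to Day7, 6 were raised and 2 lowered with a median of 2.28, and from ES to Day2, 1 was raised and 2 lowered. Aldh1a2, which makes RA in limb-innervating MNs, stood at 8.19 in ES, 7.52 on Day2, 7.83 on Day3, and 7.76 and 14.85 on Day4 and Day7. Foxp1, the cofactor that Hox proteins need in the lateral motor column, stood at 13.59, 14.75, 13.09, 12.91 and 13.08, and Ret, a receptor of pool-specific trophic factors, at 5.62, 4.63, 8.40, 8.37 and 11.29. Etv4, a marker of the pool that Hoxc8 helps to specify, was lower by 2.24 on Day7 than in ES and higher by 1.19 than on Day4. Hoxc6 and Hoxc8 were lower on Day7 than on Day4 while most of these genes were higher, with the exception given above that Hoxc6 gained 0.24 without normalization.

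Markers of other cells moved over the same arrays. The 6 pan-neuronal markers had 5 raised from ES to Day7 and 0 lowered (median 4.48), and their summed normalized signal was 24759 in ES, 16072 and 15127 on Day2 and Day3, 21767 on Day4 and 312886 on Day7, with Stmn2 brightest on Day7. The 4 floor plate markers were all raised from ES to Day7 (median 8.03), with sums of 327, 858, 2241, 4781 and 57770.1, with Ntn1 brightest on Day7, and Shh itself was not well above background before Day7. Floor plate and neuronal markers thus rose in the step in which Hoxc9 fell. Of 6 neural progenitor markers, 4 were raised and 0 lowered from ES to Day4 (median 2.14), and from Day4 to Day7 2 were raised and 2 lowered (median 0.84). In that step Pax6 and Olig2, which mark progenitors and pMN, were lowered by 5.11 and 4.12, and Nkx6-1 and Irx3 rose by 1.58 and 1.04. The sums of this list were 9621, 5668, 11509.5, 24166 and 46239, with Nkx6-1 brightest on Day7.

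Markers of other germ layers were less uniform. Of the 5 endoderm markers, 3 of 4 with a value were raised from ES to Day4 (median 2.27), and 3 of 4 were lowered from Day4 to Day7, where Gata6 fell by 3.85 and Sox17 by at least 4.02. Cxcr4 instead rose by 1.83 in that step. The sums of the endoderm list were 550.5 in ES, 383 and 1258 on Day2 and Day3, and 2722 and 1719 on Day4 and Day7. Gata6 was brightest on Day4 and Cxcr4 on Day7, and Afp was not well above background on any array. Of the 5 mesoderm markers, 2 of 4 were raised and 1 lowered from ES to Day4 (median 0.28, and −0.68 without normalization), with sums of 542, 307, 1419, 981 and 457. Meox1, of somites, was the brightest on Day3 and Day4 and fell by 2.05 to Day7 in the main setting. Tbx5 instead rose by 1.24 in the step after Day4, where 1 of 3 mesoderm markers with a value was raised and 1 lowered. With normexp 0 were raised and 1 lowered in this step, and without normalization 1 was raised and 0 lowered. From ES to Day3 the mesoderm list had 1 of 3 raised and 1 lowered (median −0.77), so its sum on Day3 was that of Meox1 for the most part. T was not well above background from Day3 on, and Myod1 was on Day2 alone. Spinal interneuron markers had 4 of 5 raised from ES to Day7 and 0 lowered (median 1.21), with sums of 574, 327, 408, 1217 and 2238, Gata3 brightest on every array and En1 not well above background on any. Neural crest and glia markers had 1 of 4 raised and 2 lowered from ES to Day7 (median −0.66), with sums of 2185, 731, 868, 746 and 1198 and Foxd3 brightest in ES. Some genes stand in more than 1 list, namely Isl1, Isl2, Lhx3, T and Aldh1a2. The part of a changing mix of cells in the HoxC values was not tested.

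The genes around the HoxC cluster were mixed. Of 11 listed neighbours 10 were matched, and Hotair is not analysed here. From ES to Day2, 1 was raised and 1, Gpr84, lowered by 1.81, but 0 were lowered with the shift, with normexp or without normalization, where Gpr84 changed by 0.11. From ES to Day7, 2 were raised and 2 lowered, with a median of −0.17. From ES to Day3, 3 were raised and 0 lowered, and from ES to Day4, 5 were raised and 1 lowered (2693 and 2285 of 15838 genes). Without normalization 2 were raised and 4 lowered to Day4, beside 879 and 8341 of 15838 genes. In the main setting Nfe2, Calcoco1, Zfp385a and Itga5 were raised to Day4 and lowered to Day7, as Hoxc6, Hoxc8 and Hoxc9 were. Smug1, a DNA repair enzyme, stood at 8.79 in ES, 8.81 on Day2, 9.68 on Day3, and 10.31 and 11.61 on Day4 and Day7. Cbx5, a heterochromatin protein, stood at 11.61, 11.83, 11.47, 11.69 and 11.28, and Hnrnpa1, an RNA-binding protein, at 14.85, 14.63, 14.51, 14.61 and 14.70. Cbx5 and Hnrnpa1 stayed within 2-fold of ES in the main setting. From Day4 to Day7, 4 of 9 neighbours were lowered and 1 raised (2918 and 2911 of 16083 genes), and Itga5, an integrin, was lower by 3.90. Without normalization 1 neighbour was lowered and 3 raised, beside 536 lowered and 8384 raised of 16083 genes.

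Genes outside the Hox clusters were ranked by how close their course over the 5 arrays was to that of each HoxC gene, as the mean absolute log2 difference between profiles centred on their means, among 18598 candidates. Values below the detection limit of an array were first raised to that limit, so 2 genes that are both dim on an array match there by construction. Closest to Hoxc4 were Nr2f1, a nuclear receptor of the developing nervous system (0.87), Ctsj (0.89) and Plat (1.12). Closest to Hoxc5 were the Hox cofactor Meis2 (0.86), Rarb (0.89) and Gm20767 (0.93). Meis2 and Rarb also stand in the lists of cofactors and of RA inputs.

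Closest to Hoxc6 were Trim43b (0.08) and Adamtsl2 (0.13), both of them dim in ES and on Day3, and Igf2os (0.15), and closest to Hoxc9 were Aldh1a7 (0.43), Acta1, a muscle actin (0.48) and the ligand Bmp2 (0.51). For Hoxc8 no gene is put forward, because it and its nearest genes were dim on most arrays and their distances are largely fixed by the limits. Closest to Hoxc13 were Eda2r (0.06), Wnt10a (0.14) and Vwa5a (0.15), of which Eda2r and Wnt10a act in skin appendages, and on Day7 these distances rest on the limit, where Hoxc13 was dim. A small distance over 5 arrays is a description of their course and says nothing on shared control.

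Of the 9 HoxC genes, 1 had an entry in the RefSeq promoter table used here (build GRCm38.p6). It is shown because Hoxc4 rose on the first array after RA and on Day7 was further above ES than on any other array. The 250 bases before the Hoxc4 start given there, chr15:103034145-103034394 on the + strand, are printed with matches in capitals.
Hoxc4: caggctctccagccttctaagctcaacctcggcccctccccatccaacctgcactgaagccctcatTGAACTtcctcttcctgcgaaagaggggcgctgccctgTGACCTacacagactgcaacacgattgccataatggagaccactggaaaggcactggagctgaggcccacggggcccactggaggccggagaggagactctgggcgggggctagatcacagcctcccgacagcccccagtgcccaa
The capitals mark 1 match each, on either strand, to AGTTCA and AGGTCA, both half-sites of RA receptors, which do not overlap. Of 32851 promoters of the same length, 11.8% held AGTTCA and 14.0% held AGGTCA. The Cdx motif TTTATG, held by 10.8%, and the Hox-Pbx motif TGATNNAT, held by 7.68%, had no match in this window. The GC content was 62%, beside a median of 52.4% over all these promoters. Whether these matches are used in the cells was not tested.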

How the data were processed

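Total RNA of 5 cultures was labelled with Cy3 and hybridised to Agilent SurePrint G3 mouse arrays, 1 array per time point. The authors deposited the scanner output of Agilent Feature Extraction 10.5.1, named in the submitters' processing notes and file headers, in which the intensity of each spot had been background-subtracted and detrended within the array but not normalized between arrays, with flags for detection, saturation and outliers. They also deposited a log2 table of the same arrays, whose processing the labels do not state. Set against the scanner files, it equalled the log2 processed signal minus a constant per array close to the log2 of the 75th percentile, within 0.01 for 100% of the probes, so its scale and centring are known. Its column medians were −3.55 for ES and −2.62, −3.71, −3.53 and −3.66 for the later arrays in order. It was used as an alternative only. On the first slide, the array position in the name of each scan differed from that in its header barcode. The signals of each scan matched the deposited column of the sample to which the scan was assigned.

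Control and outlier spots were left out, log2 processed signals were averaged per probe, and the 55681 probes were quantile-normalized over the 5 arrays with limma 3.58.1 in R 4.3.3, because a legend of the paper names a quantile analysis. Other steps used Python 3.11.15, numpy 2.4.6, pandas 2.3.3 and matplotlib 3.10.9, and the change rule was tested on simulated data. Accessions of 26300 probes matched 19897 symbols in a RefSeq table of GRCm38.p6, used for names and neighbours only, since the array was designed on mm9. The probe with the highest mean stood for its gene. A change was called past 2-fold. Genes dim on 1 side entered counts and medians at their bound, or at 0 where the bright side did not exceed the limit. Samples were grouped by their labels, and no p-value was computed.

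The named genes are the 9 HoxC genes, the genes of 14 lists (neighbours, paralogs, RA and caudal inputs, cofactors, column and pool genes, and 9 marker lists, some of which share genes) and the 3 genes most like each member detected on Day3, Day4 or Day7, with values below the detection limit raised to it. Not every gene of the lists is reported here. The members and lists were chosen with earlier results of these data known. The 11 alternatives set at the start were the shift to the 75th percentile, no normalization, normexp with offset 50 (run on median spot signals) before quantile normalization, the deposited values, the flag for signal positive and significant, dim probes taken at face value, a change only where neither array was dim, genes as the mean of their probes, thresholds of 1.5-fold and 4-fold, and a limit at the 95th percentile of the ERCC probes. Quantile normalization without the Day2 array and without the Day7 array was added after seeing the data. Protein sequences and miRNAs of the cluster were not used here.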

Additional observations from a re-analysis of the deposited data

How the results depend on the processing

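Over the 13 alternatives, 78 counts and medians of the HoxC genes stayed within tolerance, 35 moved past it and 1 reversed, and among changes of single HoxC genes 253 stayed, 169 moved and 4 reversed. Each HoxC gene has 1 probe, so the mean over probes could not move any of these values. Single changes kept with both arrays well above background were also fixed at their main value. The numbers that stayed include these. The deposited values are the log2 processed signal minus a constant per array close to that of the shift. They therefore nearly repeat the shift to the 75th percentile, and both are counted above. The tolerance was a factor of 1.5 for counts, so that a count of 5 may have become 4 and one of 6 have become 9, and the scanner's spot error for log2 values. Reversed means a change of sign where the main value was past 2-fold, so sign changes of smaller values, as for Hoxc6 in its steps up to Day3, count as moved. At 4-fold 0 HoxC genes were raised from Day3 to Day4. Where a value moved, the cause was not tested. With the shift to the 75th percentile and with the deposited values, 5 HoxC genes were raised from ES to Day2 and their median was 1.65, and Hoxc13 changed by −0.24 from Day2 to Day3. Without normalization, 5 were raised to Day2, the medians were 1.88, 1.65, 1.36 and 1.53 for Day2, Day3, Day4 and Day7, 2 were lowered from Day4 to Day7, Hoxc13 changed by −0.98 from Day2 to Day3 and Hoxc6 by 0.24 from Day4 to Day7. With normexp the medians were 0.13, 1.09, 1.80 and 0.92, and 1 gene was lowered from Day4 to Day7. Its offset of 50 units is added to every spot, so folds of faint genes are smaller in this setting by construction. With the more lenient flag, 7 HoxC genes were detected in ES and 6 on Day7, and the medians were 0.62 to Day3 and 0.57 to Day7. With no filter on dim probes they were 0.62 and 0.0242. The setting with both arrays well above background leaves out every gene dim in ES. There 0 of 3, 0 of 2, 1 of 2 and 1 of 1 HoxC genes with a value were raised to Day2, Day3, Day4 and Day7. Of all genes, 840 of 14470, 1791 of 13794, 1961 of 14140 and 2892 of 13854 were. The medians were −0.0345 to Day2, −0.31 to Day3 and 0.90 to Day4. From Day4 to Day7, 1 of 3 HoxC genes was lowered (2594 of 14518 genes). A 4-fold threshold left 1 of 6 HoxC genes lowered from Day4 to Day7, where 701 of 16083 genes were lowered, against 2918 at 2-fold. With the limit at the ERCC probes the medians were 2.45, 1.27, 2.69 and 3.48, over fewer genes, and 3 HoxC genes were detected on Day2. No share of all genes detected with that limit is given here. Without the Day2 array, an alternative chosen after seeing the data, the median to Day4 was 2.48. The counts raised were 3 of 6, 5 of 7 and 3 of 5 to Day3, Day4 and Day7. Of all genes, 2463 of 15204, 2816 of 15838 and 4012 of 15839 were raised. Without the Day7 array, likewise added, the counts were 3 of 9, 3 of 6 and 5 of 7 to Day2, Day3 and Day4. Of all genes, 1939 of 18317, 2358 of 15204 and 2678 of 15838 were raised. No paired analysis was possible because every group holds a single array. For the same reason no replicate could be left out, a second probe was not run because each HoxC gene has 1, and a slide term could not be fitted with Day7 alone on its slide. Low signal over background limits the reading of Hoxc8, Hoxc11 and Hoxc12.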
